A study of Mus musculus with 4 samples.

Results

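Natural killer (NK) cells were taken from single-cell RNA libraries of whole mouse kidney as 235 of 31041 retained cell barcodes. They were chosen by raw counts of NK receptor RNA. The gate allowed no RNA of the chosen T and B lineage genes named below and little or none of the chosen macrophage genes. Other T and B lineage RNA was not excluded. A barcode was retained with at least 500 transcript counts (unique molecular identifiers, UMIs), at least 200 genes and at most 50% of UMIs on mitochondrial genes. It was counted as NK with 2 or more UMIs summed over Ncr1, Klrb1c and Klre1, none of Cd3d, Cd3e, Cd3g, Cd79a or Siglech, and at most 2 summed over C1qa, C1qb and C1qc. The groups were 2 trnE mutant mice, which carry a point mutation in the mitochondrial gene for the glutamate tRNA at loads of 79% (mutant 1) and 76% (mutant 2), and 2 wild-type C57BL/6J mice. One library was made per animal, from enzymatically dissociated kidney sorted for viable cells. The labels give no ages. They state the load per mouse, not the load in its NK cells.

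NK cells are innate lymphocytes that kill stressed, infected or transformed cells without rearranging an antigen receptor. Inhibitory receptors that read self MHC class I molecules are weighed against activating receptors that signal through small adaptor chains such as Tyrobp and Fcer1g. Killing runs through perforin (Prf1) and granzymes (Gzma, Gzmb) released from granules, and activated cells secrete interferon gamma and chemokines. In tissues, Ncr1 and Klrb1c are also carried by type 1 innate lymphoid cells, relatives that reside in the organ and often hold less granule RNA.

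The upstream DNA of the gene that marks the gate most often, Ncr1, and of both granzyme genes is shown because RNA of all 3 defines the accounts that follow. Capitals mark the letters TGTGGTT or their reverse complement AACCACA, the core recognised by Runx factors, of which Runx3 is the one best known in cytotoxic lymphocytes. Each sequence is the 250 bases before the RefSeq start in build GRCm38.p6, read 5′ to 3′ on the gene's strand. Ncr1 lies on the plus strand at chr7:4337465-4337714, Gzma on the minus strand at chr13:113100982-113101231 and Gzmb on the minus strand at chr14:56262335-56262584.
Ncr1: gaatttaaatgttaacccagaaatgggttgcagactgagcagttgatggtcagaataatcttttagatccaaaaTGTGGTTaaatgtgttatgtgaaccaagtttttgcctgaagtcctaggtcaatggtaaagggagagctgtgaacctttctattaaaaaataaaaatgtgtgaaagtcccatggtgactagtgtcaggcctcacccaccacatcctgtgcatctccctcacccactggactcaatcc
Gzma: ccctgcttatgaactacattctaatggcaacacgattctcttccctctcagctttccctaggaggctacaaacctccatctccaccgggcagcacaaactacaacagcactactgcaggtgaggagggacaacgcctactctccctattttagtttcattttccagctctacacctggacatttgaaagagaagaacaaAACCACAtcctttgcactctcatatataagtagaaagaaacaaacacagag
Gzmb: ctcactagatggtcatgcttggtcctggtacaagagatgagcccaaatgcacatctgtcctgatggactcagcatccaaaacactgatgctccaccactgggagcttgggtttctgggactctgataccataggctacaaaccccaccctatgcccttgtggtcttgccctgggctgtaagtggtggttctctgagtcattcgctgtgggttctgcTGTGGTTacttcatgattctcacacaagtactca
The match began 176 bases before the start in Ncr1, 51 in Gzma and 34 in Gzmb. Of 9 NK genes looked up, 4 held a match on either strand, the fourth being Klrk1, against 4.40% of 32851 windows of the same length. The windows of Prf1, Nkg7, Klrb1c, Klra4 and Klra8 did not hold these letters. A match describes the letters and is not a bound site.

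The 4 libraries held 9774, 9071, 5768 and 6428 retained barcodes in the order mutant 1, mutant 2, wild type 1, wild type 2, an order kept below wherever 4 values are listed. NK barcodes numbered 44, 71, 108 and 12, with median depths of 4728, 6564, 5300 and 7411.5 UMIs and summed depths of 297735, 507708, 662444 and 87191 UMIs. Wild type 2 stood apart with 12 NK barcodes, so its values rest on the fewest cells. Between 13 and 20 retained barcode sequences were shared by any pair of libraries, and no NK barcode was. A doublet caller marked 4, 0, 2 and 0 of the NK barcodes, which were kept as the rule has it. Cell Ranger 7.0.0 made the mutant files and 7.1.0 the wild-type files, so software version and genotype cannot be told apart.

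The marker genes used by the gate describe the members and are not tested. Ncr1, the receptor NKp46, was seen in 92.8% of the 235 barcodes, Klrb1c (NK1.1) in 87.7% and Klre1 in 82.6%. Ncr1 level was 705, 991, 1342 and 814 counts per 1e+06 UMIs (CPM). The other marker genes were not part of the gate: Prf1 was seen in 67.2% of NK barcodes and Gzma in 54.9%, against 11.3% and 0.640% of 1719 B barcodes (at least 2 Cd79a UMIs, no Cd3, and the other limits as above), whose median depth was 9154 UMIs against 5619 in NK barcodes. The members just inside the threshold looked different from the rest. The 15 barcodes with exactly 2 gate UMIs carried Gzma in 0% and Nkg7 in 33.3%, whereas the 220 with 3 or more carried them in 58.6% and 95.9%. The 145 barcodes just outside, with 1 gate UMI, carried Gzma in 1.38%. Cd74, the class II invariant chain of antigen-presenting cells, had 396 or more UMIs in 5, 3, 3 and 0 NK barcodes and 53 or fewer in the other barcodes. With 1 barcode of mutant 2 rich in Umod (uromodulin, a thick limb gene), 12 barcodes held over 100 UMIs of either gene, 8 of them with exactly 2 gate UMIs and 4 with 3 or more. These 12 and the 15 at the threshold went against the label. An alternative without the 12 was chosen after seeing the data. It is given below for the called genes, the immediate early sums and the differences between NK and CD8 T genotype effects. Class II, macrophage and thick limb levels are given with the 12 only.

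T cell RNA was checked because the gate removes T cells through Cd3 genes alone. Trac, the alpha chain constant region of the T cell receptor, was seen in 8.51% of NK barcodes (0%, 19.7%, 4.63% and 8.33% by library) and in 95.2% of 2132 CD8 T-gated barcodes, and Cd5 in 0.851% and 45.8%. Trbc1 and Trbc2, the beta chain constant regions, were seen in 60.9% and 54.5% of NK barcodes, above the 2.91% and 3.96% in the deeper B barcodes. In CD8 T barcodes they were seen in 64.3% and 98.2%, so the Trbc1 share was near that of CD8 T barcodes. Trdc, the delta chain constant region, was seen in 17.0% of NK, 1.45% of CD8 T and 0.233% of B barcodes. Of all NK barcodes, 75.0% to 83.3% per library held a UMI of Trac, Trbc1 or Trbc2.

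The share of NK cells did not separate the genotypes. NK barcodes made up 0.450%, 0.783%, 1.87% and 0.187% of retained barcodes, with exact 95% intervals of 0.327 to 0.604, 0.612 to 0.986, 1.54 to 2.26 and 0.0965 to 0.326. Both mutants lay between the wild types, which differed from each other more than from either mutant. The mean was 0.616% ± 0.235 (SD, n = 2) in mutants and 1.03% ± 1.19 (SD, n = 2) in wild types, with an exact permutation p of 1 (both sides), where the smallest that 2 against 2 allows is 0.333. Among NK, T and B barcodes the shares were 2.72%, 2.19%, 9.85% and 0.638%, again with p = 1 by the same exact permutation test. Per 100 CD8 T barcodes there were 11.1, 5.74, 36.9 and 5.88 NK barcodes. Wild type 1 alone set the direction: without it the mutant mean was 0.430 points higher among retained barcodes and 1.82 points higher among lymphocytes. Intervals cover counting error only.

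**Figure D1:**
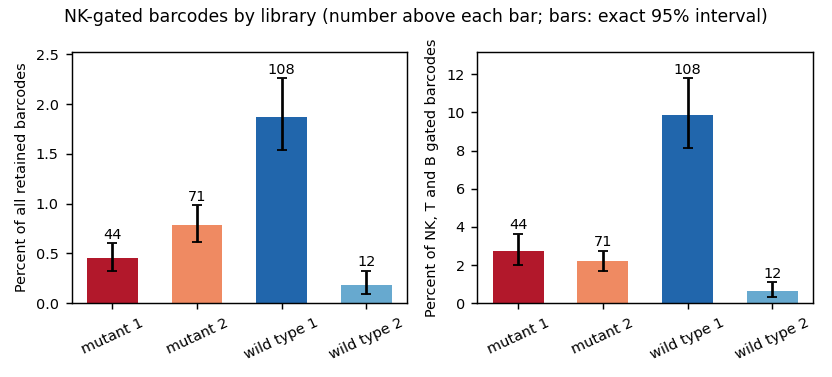
Bars give NK-gated barcodes as a percent of retained barcodes (left) and of NK, T and B gated barcodes (right) in each library, with exact 95% binomial intervals and the NK barcode number above each bar. Wild type 1 is highest at 1.87% and wild type 2 lowest at 0.187%, with both mutants between.

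NK cells differed from CD8 T cells, the other killer lymphocytes of the kidney, in receptors, adaptors and granule content, in all 4 mice. CD8 T barcodes were gated on at least 2 Cd3 UMIs, at least 1 of Cd8a or Cd8b1, no Cd4 and no NK gate UMI, with the other limits as for NK. UMIs were summed per library and gate, and the pairs compared within mice. Of 8846 genes tested, 10.7% passed an adjusted p of 0.05 in edgeR's quasi-likelihood test, 441 higher in NK cells and 508 lower. Both gates were cut by lineage genes, so genes that travel with those were bound to differ, and the values describe the contrast rather than support the gate. The count fell to 492 without wild type 1 and to 615 without mutant 2.

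Activating receptors and their adaptors were mostly higher in NK cells: 14 of 20 rose and 4 fell, against 4.99% and 5.74% of all genes tested, with a median log2 fold change of 3.09 against -0.05 over all genes. Klrk1, the receptor NKG2D, stood at 699, 1170, 1209 and 1434 CPM in NK cells and 57.4, 128, 64.9 and 45.2 CPM in CD8 T cells, a log2 fold change of 3.81 (SE 0.25, adjusted p = 1.57e-06). Klrc2, the NKG2C receptor, rose by a log2 fold change of 4.90 (SE 0.24). The signalling adaptors followed. Fcer1g stood at 3171, 2494, 2903 and 906 CPM against 144, 90.8, 127 and 36.5 (log2 fold change 4.46, SE 0.12, adjusted p = 4.20e-09), and Tyrobp, the adaptor DAP12, at 2160, 2240, 2334 and 677 against 155, 95.9, 97.0 and 23.4 (4.27, SE 0.18). Both were lowest in wild type 2, in NK and in CD8 T cells. The members that fell were Hcst, the adaptor DAP10 (-0.70, SE 0.15), Cd247, the zeta chain shared with the T cell receptor (-1.40, SE 0.18), the adaptor Sh2d1a (-2.41, SE 0.20) and the self-ligand receptor Slamf6 (-4.90, SE 0.44).

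Several Ly49 receptors of the Klra family, which read MHC class I, were higher in NK cells. Klra4 stood at 369, 303, 477 and 734 CPM and Klra8, the activating receptor Ly49H, at 282, 195, 337 and 803 CPM, with no UMI of either among 2132 CD8 T barcodes, which allows a share of up to 0.141%. That limits barcodes with a UMI, not cells that express the gene, and the CD8 T gate had already left out barcodes with an NK gate UMI (763 barcodes held 2 or more beside a Cd3 UMI). Against a floor of 3 UMIs over all CD8 T barcodes, Klra4 was at least 1746-fold higher, Klra8 at least 1291-fold and Klrb1a at least 1036-fold. Family members are near-identical copies of each other, so how the authors' counting split reads between them is uncertain. Klra4 was seen in 20.9% and Klra9 in 47.2% of NK barcodes. Among 16 inhibitory receptors, 10 were higher and 4 lower, against 4.99% and 5.74% of all genes tested. Klri2 (log2 fold change 8.74, SE 0.32), Klrb1b (7.37, SE 0.31) and Klra9 (6.67, SE 0.26) were among those higher, whereas the exhaustion receptors Pdcd1 (-3.87, SE 0.48), Lag3, Havcr2 and Tigit were lower.

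The killing machinery differed gene by gene. Gzma stood at 3490, 8184, 7709 and 1170 CPM in NK cells and 4.50, 74.0, 57.9 and 1.09 in CD8 T cells, a log2 fold change of 7.46 (SE 0.38, adjusted p = 2.12e-07). Gzmk, a granzyme of memory-like CD8 T cells, ran the other way at 0, 5.91, 6.04 and 0 CPM against 761, 833, 833 and 395 (-7.57, SE 0.29). Prf1 was higher by 2.07 (SE 0.30) and Gzmb by 2.53 (SE 0.52), although in wild type 2 Gzmb was lower in NK cells (68.8 against 145 CPM). Serpinb9 and Serpinb6b, inhibitors known to shield killer cells from their own granzymes, rose by 2.58 (SE 0.27) and 2.56 (SE 0.22). Nkg7, a granule membrane protein, was lower (-0.55, SE 0.14, adjusted p = 0.0305). Of the 20 granule and death ligand genes tested, 7 were higher and 3 lower, against 4.99% and 5.74% of all genes tested. Ccl5, a chemokine stored by both, had a log2 fold change of -0.81 (SE 0.28, adjusted p = 0.0982) and did not pass.

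Cma1, a mast cell protease gene, was seen in 31.9% of NK barcodes and 1 of 2132 CD8 T barcodes (log2 fold change 10.4, SE 0.45). Clnk, an adaptor of immune receptor signalling, was higher by 6.20 (SE 0.29). All 9 T cell markers tested were lower, against 5.74% of all genes tested. Their median log2 fold change was -3.21, led by the surface receptors Cd6 and Cd5 and by Themis, a T cell signalling protein.

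Transcription factors split evenly, with 6 of 20 higher and 6 lower, against 4.99% and 5.74% of all genes tested. Tbx21 (T-bet), which drives the type 1 killer programme, was higher by 1.68 (SE 0.22), Zeb2, which acts in terminal maturation, by 2.37 (SE 0.22), and Irf8 by 3.23 (SE 0.40). Eomes, the sister of T-bet, was lower by -0.94 (SE 0.18) and stood at 67.2, 76.8, 81.5 and 149 CPM in NK cells against 99.5, 159, 168 and 181. Tox was lower by -1.68 (SE 0.18). Of 18 cytokine and chemokine receptors, 6 were higher and 5 lower, against the same 4.99% and 5.74%. The higher ones included Il12rb2 (5.18, SE 0.30) and Il18rap (2.85, SE 0.21), subunits of the receptors for interleukins that prime NK cells. Il2rb (1.44, SE 0.14) and Ifngr1 (1.27, SE 0.15) were also among them. The 5 lower included the chemokine receptor Cxcr3 (-1.42, SE 0.20). Xcl1, a chemokine that draws type 1 dendritic cells, stood at 1656, 1714, 796 and 619 CPM against 342, 360, 236 and 80.6 (2.13, SE 0.16).

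**Figure D2:**
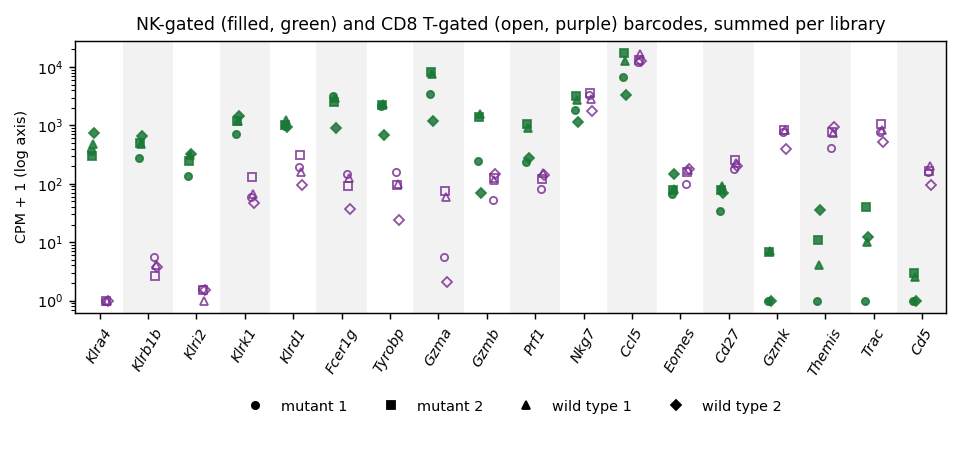
Each symbol is 1 library, with CPM + 1 on a log axis for 18 genes in NK-gated (filled) and CD8 T-gated (open) barcodes. Klra4 to Tyrobp, Gzma and Prf1 lie higher in NK cells in all 4 libraries, Gzmb in all but wild type 2, and Gzmk to Cd5 lie higher in CD8 T cells.

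NK barcodes varied among themselves in granule content, and other genes varied with it in every mouse. The barcodes were divided, after their values had been seen, at 3 summed UMIs of Gzma and Gzmb into 127 granule-high and 108 granule-low barcodes, and everything on these sets is a description with no test. Near the threshold, 12 barcodes had 1 or 2 such UMIs and 4 had 3 to 5. Granule-high barcodes numbered 17, 48, 59 and 3, so in wild type 2 each contrast below rests on 3 granule-high barcodes. They made up 38.6%, 67.6%, 54.6% and 25% of NK barcodes, so each genotype had 1 library above and 1 below, and the interval of wild type 2 ran from 5.49% to 57.2%. How many of all genes split the same way in every library was not computed, so the counts of listed genes below have no background share. Depth did not run one way with the sets, with medians of 5032, 6528, 5581 and 6181 UMIs in granule-high and 4611, 6692, 5160 and 7648 in granule-low barcodes. All 12 barcodes rich in Cd74 or Umod and all 15 with exactly 2 gate UMIs were granule-low. Without either kind, 89 granule-low barcodes were left.

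Granule-high barcodes more often carried several genes known from mature circulating NK cells: 7 of 10 maturation genes were in more granule-high barcodes in every library. Prf1 was seen in 89.0% of granule-high and 41.7% of granule-low barcodes. Klf2, a factor that keeps lymphocytes circulating, was seen in 85.8% against 17.6%, and S1pr5, the receptor that lets mature NK cells leave tissue, in 45.7% against 0.926%. The maturation markers Itgam (CD11b) and Klrg1 ran the same way at 56.7% against 13.9% and 53.5% against 9.26%. Cma1 was in 59.1% of granule-high and 0 of 108 granule-low barcodes, which allows up to 2.78%. Eomes was seen in 43.3% against 10.2%, and Tbx21, shared by NK cells and type 1 innate lymphoid cells, in 76.4% against 57.4%.

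Granule-low barcodes more often carried several, though not all, genes known from tissue-resident innate lymphocytes: 9 of 14 genes listed for them were in more granule-low barcodes in every library, with and without the barcodes rich in Cd74 or Umod or at exactly 2 gate UMIs. Ltb, lymphotoxin beta, was seen in 88.0% of granule-low and 23.6% of granule-high barcodes, Xcl1 in 80.6% against 38.6%, and Cxcr6, a chemokine receptor of resident lymphocytes, in 72.2% against 12.6%. Il7r, the interleukin 7 receptor, was in 55.6% against 12.6%, and Tmem176b in 71.3% against 19.7%. Other residence genes differed little or not in every library. Rgs1 was in 50.9% against 52.0%, Rgs2 in 31.5% against 35.4% and Cd69 in 23.1% against 21.3%. Itga1, the integrin CD49a, was in 44.4% against 22.0%, but in mutant 1 it ran the other way. In the 89 granule-low barcodes left without those, Cxcr6 was in 80.9%, Ltb in 92.1% and Klf2 in 15.7%. The Cxcr6 contrast held in each library: 70.4%, 56.5%, 77.6% and 88.9% of granule-low barcodes had a UMI, against 17.6%, 10.4%, 13.6% and 0% of granule-high. Klf2 ran the opposite way in each, at 11.1%, 21.7%, 22.4% and 0% of granule-low and 88.2%, 81.2%, 88.1% and 100% of granule-high barcodes. After each barcode was thinned to 1500 UMIs, leaving out 4, Cxcr6 was in 47.1% against 6.25% and Klf2 in 7.56% against 68.8%. Among B barcodes, Cxcr6 was seen in 1.22% and Xcl1 in 0.291%. CD8 T barcodes were closer, with Cxcr6 in 71.1%, Ltb in 87.9%, Il7r in 42.1% and Klf2 in 23.3%. Xcl1 was in 40.2% of them and Tmem176b in 14.7%. Frequent Cxcr6 and Ltb and infrequent Klf2 were thus not particular to granule-low NK barcodes. Over all NK barcodes, 9 markers of type 2 and type 3 innate lymphoid cells summed to 84.0, 59.1, 127 and 275 CPM, with no UMI of Il5, Il13, Il22 or Il17rb. Among the 89, further listed genes were Inpp4b in 85.4% against 18.1% of granule-high barcodes, Cd200r1 in 55.1% against 9.45% and Tnfsf10 in 49.4% against 10.2%. Of the 14 listed genes, 5 did not run one way in every library. Eomes was in 12.4% of the 89 against 43.3%. For granule-low barcodes the name NK is thus the label of the gate only. Ncr1 and Klrb1c do not tell NK cells from type 1 innate lymphoid cells. Values for NK cells elsewhere, the CD8 T contrast among them, are over both sets.

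**Figure D3:**
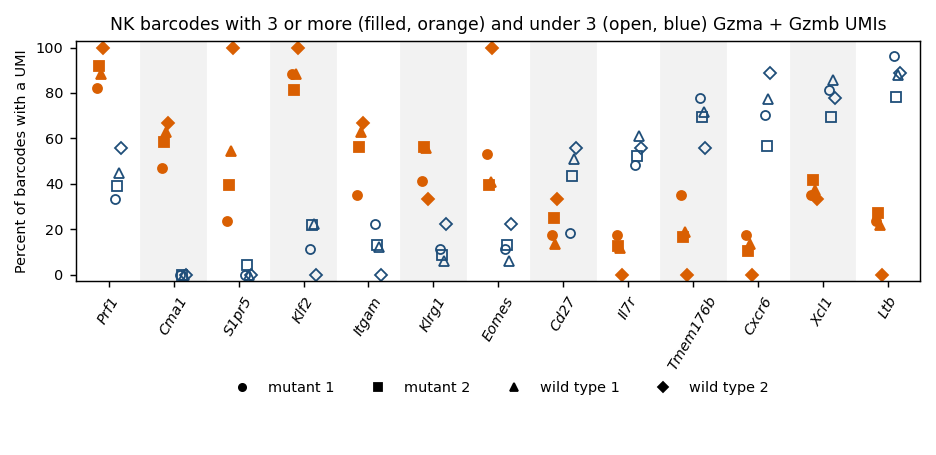
Each symbol is 1 library and gives the percent of NK barcodes with a UMI of the gene, among those with 3 or more summed Gzma and Gzmb UMIs (filled) and those with fewer (open). From Prf1 to Eomes the filled symbols lie higher in every library, and from Cd27 to Ltb the open symbols do within each library.

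Between genotypes, 7 genes passed the test in NK cells, and 5 of them were seen in 17 or fewer of the 235 barcodes. Of 5969 genes tested, 7 (0.117%) passed an adjusted p of 0.05 in edgeR, 6 higher in mutants (0.101%) and 1 lower (0.0168%). The higher genes were Pkhd1, Mal and Wfdc2, which are tubule or collecting duct genes, Spp1 (osteopontin), Mgl2, a lectin of dendritic cells and macrophages, and Nr4a1, an early activation gene. The lower gene was Calca, which encodes calcitonin and the peptide CGRP. The count was 54 without mutant 1, 76 without mutant 2, 53 without wild type 1 and 47 without wild type 2, where a lone library is assumed to vary like the others. It was 0 when each gene's highest barcode in each library was set to its second highest, an alternative chosen after seeing the data, with 113 genes at an unadjusted p under 0.05 against 231 in the fit as reported. DESeq2 called 2 genes, Spp1 and Wfdc2. Without the 12 barcodes rich in Cd74 or Umod it was 2, Spp1 and Nr4a1, with 123 of 5405 genes at an unadjusted p under 0.05. With library totals as the scale, the median of all genes moved from 0.03 to -0.12.

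The tubule genes traced to a pair of barcodes. Pkhd1 (fibrocystin, chromosome 1, 20057779 to 20618064) stood at 87.3, 120, 1.51 and 11.5 CPM (log2 fold change 5.16, SE 0.85, adjusted p = 0.00413), but 60 of its 89 UMIs lay in 1 barcode of mutant 2 and 26 in 1 barcode of mutant 1. The same barcodes held 37 and 41 of 87 UMIs of Mal, a membrane traffic protein, and 59 and 130 of 216 UMIs of Wfdc2. The mutant 2 barcode also held 320 Umod UMIs (uromodulin, the marker of the thick ascending limb), with 2 gate UMIs and none of Gzma, Prf1 or Nkg7. The mutant 1 barcode had 31972 UMIs, 11 gate UMIs and 105 of Gzma. With the gate lowered to 1 UMI, the log2 fold change of Pkhd1 turned to -0.13. Thick limb and distal tubule markers summed to 50.4, 1651, 74.0 and 22.9 CPM in NK barcodes. Their part in the result was not tested.

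Spp1, a secreted matrix protein of injured tubule, macrophages and some lymphocytes (chromosome 5, 104435118 to 104441050), stood at 1646, 561, 98.1 and 68.8 CPM, both mutants above both wild types (log2 fold change 3.85, SE 0.68, adjusted p = 0.00545). It was spread over 49 barcodes, 12, 17, 17 and 3 per library, with the top 3 holding 70.0% of its UMIs. Barcodes with a UMI made up 27.3%, 23.9%, 15.7% and 25%, against 29.0%, 18.2%, 11.6% and 33.3% of CD8 T and 34.5%, 19.1%, 11.4% and 35.7% of B barcodes. The share of NK barcodes with a UMI was thus above both other gates in mutant 2 and wild type 1. It was below both in mutant 1 and wild type 2. The levels separated the genotypes and the shares of barcodes did not. Without the 12 barcodes rich in Cd74 or Umod, the adjusted p was 0.0483 (log2 fold change 4.04). Some of the top carriers had abundant granule RNA: 125 Spp1 UMIs lay beside 107 of Gzma and 40 of Prf1 in 1 barcode of mutant 2, and 255 beside 47 of Gzma in 1 of mutant 1 that the doublet caller marked. The second highest carrier, with 212 Spp1 UMIs, was the mutant 1 barcode of the tubule genes, with 130 Wfdc2 UMIs. It held 5 Cd74 and 4 Umod UMIs, so it stayed in the fit without the 12. The Umod-rich barcode of mutant 2 held 58 Spp1 UMIs. With the highest barcodes capped, Spp1 did not pass.

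Mgl2 (chromosome 11, 70130329 to 70137550) stood at 191, 31.5, 3.02 and 0 CPM (log2 fold change 5.37, SE 0.98, adjusted p = 0.00545). Its top 3 barcodes, all from mutants, held 86.7% of 75 UMIs together with 567, 1063 and 800 UMIs of Cd74, the class II invariant chain, and no Gzma. Without mutant 1 the adjusted p was 0.623. Calca (chromosome 7, 114631478 to 114636357) stood at 10.1, 3.94, 98.1 and 138 CPM (log2 fold change -3.92, SE 0.70, adjusted p = 0.00545), and 51 of its 82 UMIs lay in 1 barcode of wild type 1. Without the 12 barcodes its adjusted p was 0.0519, and Pkhd1, Mal, Wfdc2 and Mgl2 were too low to be tested. Calca was seen in 2 of 44, 2 of 71, 3 of 108 and 2 of 12 barcodes, so its values rest on a handful of cells. No Calca carrier among its top 3 had a Gzma UMI.

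**Figure D4:**
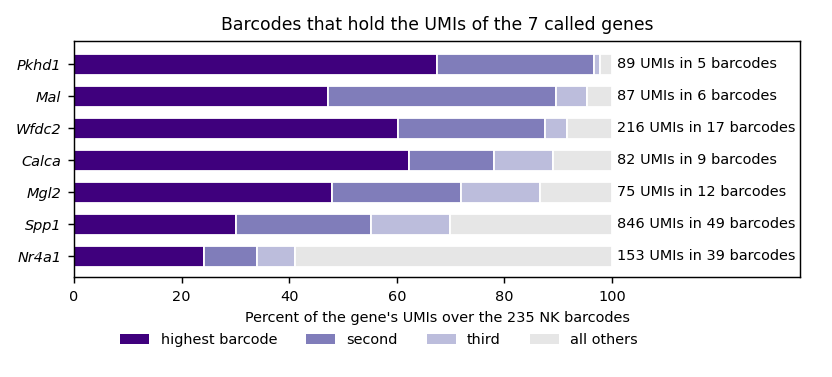
Each bar splits the NK-gated UMIs of a called gene by the barcodes that hold them, from the highest barcode to all beyond the third, as a percent over 235 barcodes. The top 3 barcodes hold 97.8% of Pkhd1 and 41.2% of Nr4a1, the most evenly spread of the 7.

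Nr4a1 was the exception among the called genes in its spread over cells. Nr4a1 encodes Nur77, a nuclear receptor induced rapidly by receptor signalling and also by tissue dissociation (chromosome 15, 101254269 to 101274795). It stood at 121, 207, 15.1 and 22.9 CPM, both mutants above both wild types (log2 fold change 3.40, SE 0.66, adjusted p = 0.00884). It was seen in 10 of 44, 19 of 71, 8 of 108 and 2 of 12 barcodes, that is 22.7%, 26.8%, 7.41% and 16.7%. The adjusted p was 0.172 without wild type 1, 0.664 with the highest barcodes capped and 0.0583 in DESeq2, with log2 fold changes of 3.11, 3.14 and 3.40. In CD8 T cells the same gene stood at 25.9, 35.5, 20.8 and 43.0 CPM, with wild type 2 highest. Of the 39 carriers, 8 were among the 12 barcodes rich in Cd74 or Umod and held 12 of 36, 8 of 105, 3 of 10 and 0 of 2 Nr4a1 UMIs by library. Without them Nr4a1 stood at 113, 223, 11.5 and 22.9 CPM and was seen in 15.4%, 25.4%, 5.71% and 16.7% of barcodes, so mutant 1 fell below wild type 2 in share (log2 fold change 3.69, adjusted p = 0.0483). The difference of the genotype effect between NK and CD8 T cells was 2.97 (SE 0.52, adjusted p = 0.0630) and did not pass.

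The other immediate early and dissociation genes leaned the same way without passing. All 18 tested had a positive log2 fold change, against 3119 of 5969 genes tested, with a median of 0.97 against 0.03, and only Nr4a1 passed. All 18 were also positive under RLE size factors and under library totals. In 13 of the 18, both mutants lay above both wild types, where 11.7% of all genes tested did. Zfp36, which degrades cytokine mRNAs, stood at 353, 132, 66.4 and 34.4 CPM (log2 fold change 2.27, SE 0.63, adjusted p = 0.226). Fos, a subunit of AP-1, stood at 383, 102, 95.1 and 45.9 CPM (1.81, SE 0.64, adjusted p = 0.611). Barcodes with a Fos UMI made up 20.5%, 14.1%, 6.48% and 25% of NK barcodes, so by share the groups overlapped. Nr4a2 stood at 70.5, 260, 30.2 and 57.3 CPM (2.27, SE 0.65, adjusted p = 0.256). Junb stood at 776, 806, 462 and 287 CPM. Summed over 21 genes, the list gave 5549, 4954, 3353 and 2500 CPM in NK cells and 3290, 2471, 2649 and 3011 CPM in CD8 T cells, where the groups overlapped. Without the 12 barcodes rich in Cd74 or Umod the NK sums were 5507, 5260, 3275 and 2500 CPM. Macrophage and monocyte markers, given with the class II genes below, were also higher in both mutants, and their part in these values was not tested. The list had been picked with earlier results known, and its members share regulators, so their common direction is not 18 separate observations. The labels name no processing day, and the part of dissociation in these values was not tested.

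**Figure D5:**
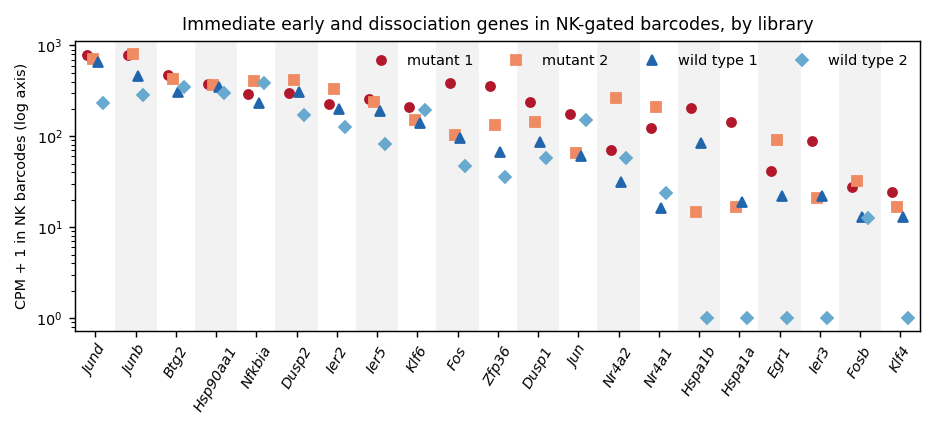
Symbols give CPM + 1 on a log axis for 21 immediate early and dissociation genes in the NK barcodes of each library, ordered by mean level. Nr4a1, Zfp36, Fos and Junb lie higher in both mutants (red, orange) than in both wild types (blue, light blue), while Jun, Klf6 and Nfkbia overlap.

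The killing programme itself overlapped between genotypes. Gzma stood at 3490, 8184, 7709 and 1170 CPM (log2 fold change 0.49, SE 0.59), Prf1 at 232, 1038, 886 and 275 (0.20, SE 0.63) and Gzmb at 249, 1375, 1597 and 68.8 (-0.01, SE 0.74). For all 3, mutant 2 and wild type 1 were high and mutant 1 and wild type 2 low. The granule-high shares were also higher in mutant 2 and wild type 1. Those sets were cut on Gzma and Gzmb UMIs, so for these genes the likeness was largely set by the choice. None of 20 granule genes, 19 activating receptors, 11 inhibitory receptors, 20 transcription factors or 10 maturation genes tested passed in edgeR. At an unadjusted p under 0.05 there were 2 transcription factors and 0 in each of the other 4 lists, against 231 of all 5969 genes. Klra4, Klra8, Klrk1 and Klrc2 had both mutants below both wild types, with log2 fold changes of -0.63, -1.01, -0.33 and -0.74 and adjusted p = 1.00 for each. In 8 of the 19 activating receptors both mutants lay below both wild types, where 21.8% of all genes tested did. In 11 of the 20 transcription factors they did so too, with 5 of the 20 positive (4 with library totals as the scale) and a median log2 fold change of -0.45 (-0.60). Standard errors of 0.59, 0.63 and 0.74 for the killing genes are wide, so a p above the threshold does not show that levels were alike.

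Cytokine genes were not called either. Ifng stood at 158, 185, 139 and 57.3 CPM (0.81, SE 0.56), and Ccl5 at 6657, 17276, 12742 and 3257 (0.69, SE 0.54). Xcl1, at 1656 and 1714 CPM in mutants and 796 and 619 in wild types, had a log2 fold change of 1.41 (SE 0.55, adjusted p = 0.928) with groups that did not overlap. Among genes with the smallest p in the downward direction, Ikzf2, the transcription factor Helios, stood at 73.9, 65.0, 121 and 596 CPM (-2.05, SE 0.64, adjusted p = 0.383), and Dscam, a cell adhesion gene, at 80.6, 59.1, 166 and 860 (-2.59, SE 0.66, adjusted p = 0.154). Wild type 2 was far above the others in both, in 7 and 3 of its 12 barcodes.

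The mitochondrially encoded share of NK RNA overlapped between mice with the mitochondrial tRNA mutation and wild types. They made up 2.06%, 3.86%, 2.86% and 3.04% of NK UMIs, with mutant 1 lowest and mutant 2 highest. The means were 2.96% ± 1.27 (SD, n = 2) and 2.95% ± 0.128 (SD, n = 2), with an exact permutation p of 1. Among barcodes without a T cell receptor UMI, which numbered 8, 16, 18 and 3, the means were 4.51% and 2.61%, a difference of 1.90 points with an exact permutation p of 0.333, the smallest this design allows. None of 12 mitochondrial mRNAs tested passed in edgeR, 10 were positive (6 with library totals as the scale), and 1, mt-Nd3, a complex I subunit, was at an unadjusted p under 0.05. It stood at 94.0, 219, 258 and 700 CPM (-1.37, SE 0.60). mt-Co1, of complex IV, stood at 3664, 6045, 4532 and 4370 CPM (0.29, SE 0.49). Of 7 integrated stress response genes tested, none passed in edgeR or reached an unadjusted p under 0.05. Atf4, the factor that runs this response, stood at 63.8, 108, 74.0 and 57.3 CPM, and Gdf15 and Chac1 had no UMI in any NK barcode. None of 21 interferon-stimulated genes tested passed, with 3 at an unadjusted p under 0.05.

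Over all NK barcodes, class II antigen presentation genes had higher values in mutants and did not pass. The levels include 5, 3, 3 and 0 barcodes with 396 or more Cd74 UMIs and are not given without them. Outside the 12 barcodes rich in Cd74 or Umod, the highest Cd74 count per barcode was 10, 22, 53 and 41 UMIs. H2-Ab1 stood at 2831, 1129, 622 and 80.3 CPM (log2 fold change 2.57, SE 0.68, adjusted p = 0.154), H2-Eb1 at 2670, 1062, 752 and 115 (2.20, SE 0.66) and Cd74 at 10190, 3662, 3490 and 528 (1.94, SE 0.63). In CD8 T cells Cd74 stood at 2707, 958, 2943 and 378 CPM, where the groups overlapped. Barcodes with a Cd74 UMI, however, were more frequent in mutants in both gates, at 86.4%, 76.1%, 53.7% and 41.7% of NK and 86.9%, 78.0%, 45.7% and 43.6% of CD8 T barcodes. The test of the difference between NK and CD8 T genotype effects passed for 11 of 10051 genes (0.109%), 8 higher (0.0796%) and 3 lower (0.0298%), among them Cd74 (1.56, SE 0.17, adjusted p = 0.0017), H2-Ab1 (2.08), H2-Eb1 (1.96) and H2-Aa (1.52). The count was 0 without wild type 1, 4 without wild type 2, 83 without mutant 1 and 46 without mutant 2. Macrophage and monocyte markers moved with these genes, summing to 762, 475, 373 and 126 CPM over 10 markers, with all 4 tested higher in both mutants. The same 10 markers summed to 677, 678, 392 and 260 CPM in CD8 T barcodes. In all retained barcodes outside the NK gate they summed to 9639, 9860, 5080 and 981 CPM, so higher sums in both mutants were not particular to NK barcodes. By library, 5, 3, 5 and 0 NK barcodes held 10 or more UMIs of these markers. The 3 top Mgl2 barcodes alone held 567, 1063 and 800 of 7251 Cd74 UMIs. Without barcodes holding a T cell receptor UMI, the difference for Cd74 was -1.17. Without barcodes of over 100 Cd74 or Umod UMIs in either gate it was -1.65, with H2-Ab1 at -0.93, H2-Eb1 at -0.82 and H2-Aa at -1.75 (adjusted p = 0.421 to 1), a choice of barcodes that used Cd74 itself. Their part in the result was not tested.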

How the data were processed

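Per the labels, kidneys of 2 trnE mutant and 2 wild-type mice were digested, viable cells were sorted, and 3′ droplet libraries were made. The deposited count matrices hold raw UMI counts per gene and barcode (32285 genes, 37041 barcodes). They were made with Cell Ranger 7.0.0 or 7.1.0 per the file headers, on mm10 per the submitters' processing notes; the annotation release is not given in the sources used here. The members and gene lists were chosen with earlier results of these data known.

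Barcodes were gated on raw UMIs. Counts were summed per library and gate, filtered with filterByExpr, scaled by TMM and tested with edgeR 4.0.16 (quasi-likelihood, Benjamini-Hochberg over all genes tested, threshold 0.05). The NK against CD8 T fits used library as a block, because both gates came from the same mouse. Gate genes stayed in the fits, were left out of all counts and are only described. Shares were compared by exact two-sided permutation tests with Clopper-Pearson intervals. Alternatives varied scaling, filter, test (DESeq2 1.42.0), gate and libraries. Doublets were called with Scrublet in scanpy 1.11.5 and kept.

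Named genes were the 10 largest changes each way past the threshold at a mean of at least 50 CPM with no overlap between groups, up to 4 of smallest p per list, the markers, and the mitochondrial mRNAs. Levels are CPM of summed UMIs. Coordinates are from GENCODE M21 (GRCm38) and promoters from RefSeq. Tested on simulated data of 5490, 8440 and 9661 genes, 4-fold changes were found in 14% (genotype), 88% (NK against CD8 T) and 9% (difference) of cases. For 2-fold changes these were 1%, 10% and 0%. The changed genes were drawn from those with at least 20 UMIs over the NK barcodes. Each mouse is 1 library, so p-values rest on 2 animals per group. One gene is not reported here.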

Additional observations from a re-analysis of the deposited data

Results flagged for a closer look

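The genotype effect differed between NK and CD8 T cells, by the test of the difference itself, for 11 genes. It was more positive in NK cells for Mgl2 (7.65 on the log2 scale), Wfdc2 (3.61), Spp1 (2.84), Cd209a (2.77), H2-Ab1 (2.08), H2-Eb1 (1.96), Cd74 (1.56) and H2-Aa (1.52). It was more negative for S100a8 (-10.7), S100a9 (-7.58) and S100g (-4.90). S100a8 and S100a9, neutrophil calprotectin genes, lay in 1 barcode of wild type 1, which held 321 of 324 and 451 of 459 UMIs. S100g, a calcium carrier of the distal tubule, stood at 23.5, 3.94, 24.2 and 34.4 CPM in NK cells against 281, 8.06, 7.56 and 10.9 in CD8 T cells. Cd209a, a dendritic cell lectin, stood at 275, 118, 177 and 0 CPM in NK cells, in 6, 5, 3 and 0 barcodes. With the 12 NK barcodes, and 7, 9, 9 and 2 CD8 T barcodes, of over 100 Cd74 or Umod UMIs left out, Cd74 and the 3 H2 genes were negative and did not pass, and Spp1, S100a8, S100a9 and S100g passed with the same sign.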

How the results depend on the processing

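All 20 genes named for the NK against CD8 T contrast kept direction and call in every alternative in which they were tested. They were chosen as the largest passing changes with the same direction in every library, so this was largely set by the choice. The count of 949 for the contrast became 1458 with no filter, 2058 with the NK gate at 1 UMI and 545 without barcodes holding a T cell receptor UMI. It was 405 with no replicate block (library) and 492 to 855 over left-out libraries. With library totals as the scale, 578 were higher and 359 lower.

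The genotype count of 7 became 11 with RLE size factors, 19 with library totals (12 higher, 7 lower, all-gene median -0.12 against 0.03), 61 with no filter, 2 in DESeq2, 3 at a gate of 3 UMIs, 36 without called doublets, 22 without genes of other cells, and 47 to 76 over left-out libraries. It was 0 (427 unadjusted) at a gate of 1 UMI, 0 (47 unadjusted) without T cell receptor UMIs and 0 with capped barcodes, and 2 without barcodes of over 100 Cd74 or Umod UMIs. Replicate numbers are shared by title only, with a correlation of 0.154 between same-numbered deviations; the replicate block gave 42 calls, all 7 among them. Pkhd1 turned to -0.133 at a gate of 1 UMI.

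The count of 11 for the difference became 55 with no filter, 7 in DESeq2, 5 at a gate of 3 UMIs, 22 without T cell receptor UMIs, 24 with capped barcodes, 0 (389 unadjusted) at a gate of 1 UMI and 0 to 83 over left-out libraries. Without T cell receptor UMIs, Cd74 was -1.17, Cd209a -0.162, H2-Ab1 -0.755, H2-Aa -1.35 and H2-Eb1 -0.833. Without barcodes of over 100 Cd74 or Umod UMIs, 4 of 8 calls were shared with the 11, and Cd74 was -1.645, H2-Ab1 -0.934, H2-Aa -1.745 and H2-Eb1 -0.816. S100a9 ranged from -9.30 to 4.70 over left-out libraries, the latter without wild type 1.

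The share difference of -0.413 points ranged from -1.26 to 0.430 over left-out libraries, and the lymphocyte share difference of -2.79 from -7.40 to 1.82. The mitochondrial difference of 0.0114 points ranged from -0.888 to 0.911, and was -0.548 at a gate of 1 UMI, -0.230 at a mitochondrial limit of 25% and 1.90 without T cell receptor UMIs. The causes were not tested. The 12 NK barcodes of wild type 2 limit all genotype values.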
